A study of Homo sapiens with 24 samples.

Results

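Untreated SH-SY5Y cells harvested at 24 h were compared with untreated SH-SY5Y cells harvested at 4 h, with 3 libraries at each time. These are the libraries labelled as untreated at those times, 6 of the 24 libraries of the series. SH-SY5Y is an established human neuroblastoma line, a tumour line of the sympathetic nerve lineage, and the labels name no genetic change in any group. The other 18 libraries come from cells given copper for 4 h, or the copper chelators dextran-catechin (DC) or TEPA, interferon gamma (IFN), DC with IFN or TEPA with IFN for 24 h. The series gives each treatment a control of its own harvest time, so the 24 h and 4 h controls differ in time and also in the experiment they served, and the labels do not say what happened to untreated cells at the start. Time and experiment cannot be told apart. Nothing in the labels tells whether libraries of 1 group came from separate cultures, so the spread between libraries may be technical. Unless said otherwise, p-values measure that spread pooled over all 24 libraries, not the spread of the untreated libraries alone.

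Growth factor and serum signals run through the kinases of the MAPK pathway to serum response factor (SRF), which binds the CArG box, and switch on immediate early genes such as the EGR and NR4A families. SRF with its actin-sensing cofactors also drives genes of the actin cytoskeleton, and proteins such as NAB2 and the DUSP phosphatases then shut this burst down. Neuroblastoma cells hold a balance between an adrenergic, neuron-like state and a mesenchymal state.

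At 24 h, transcripts of several neuronal channels, axon guidance receptors and lipid synthesis enzymes were higher than at 4 h. Several transcripts of the actin cytoskeleton, of immediate early genes and of DNA replication were lower. In all, 1420 of 14654 genes tested (9.69%) passed edgeR's quasi-likelihood test with a Benjamini-Hochberg adjusted p below 0.05. Of these, 864 (5.9% of genes tested) were higher at 24 h and 556 (3.79%) were lower. At least 2-fold changes numbered 139 higher and 124 lower, and the median log2 fold change (24 h minus 4 h) of all genes tested was -0.01. This fit estimates the spread from all 24 libraries. Fitted to the 6 untreated libraries alone, edgeR called 1 gene, LONRF2, with 2312 genes at an unadjusted p under 0.05.

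The libraries differed along a trend with the GC content of the transcripts. Each library was given a GC difference, which is how far its genes with a GC content over 0.6 stood above its genes under 0.4 (medians of log2 level after subtracting each gene's mean over libraries). It was -0.96, -0.36 and -0.79 in the 24 h libraries and -1.32, 0.66 and 1.38 in the 4 h libraries. The first 4 h library therefore lay below all 24 h libraries and the other 2 lay above them. The standard deviation of the GC difference was 1.40 at 4 h, the highest of any group, and 0.31 at 24 h. The pooled spread of the main fit can therefore understate that of the 4 h group. Genes with a GC content over 0.6 had a median log2 fold change of -1.01, with 5 called higher and 74 lower, and genes under 0.4 had a median of 0.18, with 149 higher and 15 lower. Across genes, the log2 fold change had a Pearson r of -0.60 with GC content, which describes genes that share libraries and are not independent. With the GC trend of each library removed, 1807 genes (12.3%) were higher and 2011 (13.7%) lower. Of the 1420 calls, 1218 passed again in the same direction and 0 passed in the opposite one. Some calls that no longer passed changed sign, among them JUND. Without the first 4 h library, 3188 of 14814 genes (21.5%) were higher and 4187 (28.3%) lower. Counts of list members in these fits, given below, stand against these shares over all genes. Calls that passed in all 11 fits over all groups, which are the main fit, the GC fit, 3 other tools or scalings and each library left out in turn, numbered 260 higher (1.77%) and 150 lower (1.02%). Such genes are called stable below. The part of the GC trend in any other call was not tested.

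**Figure D1:**
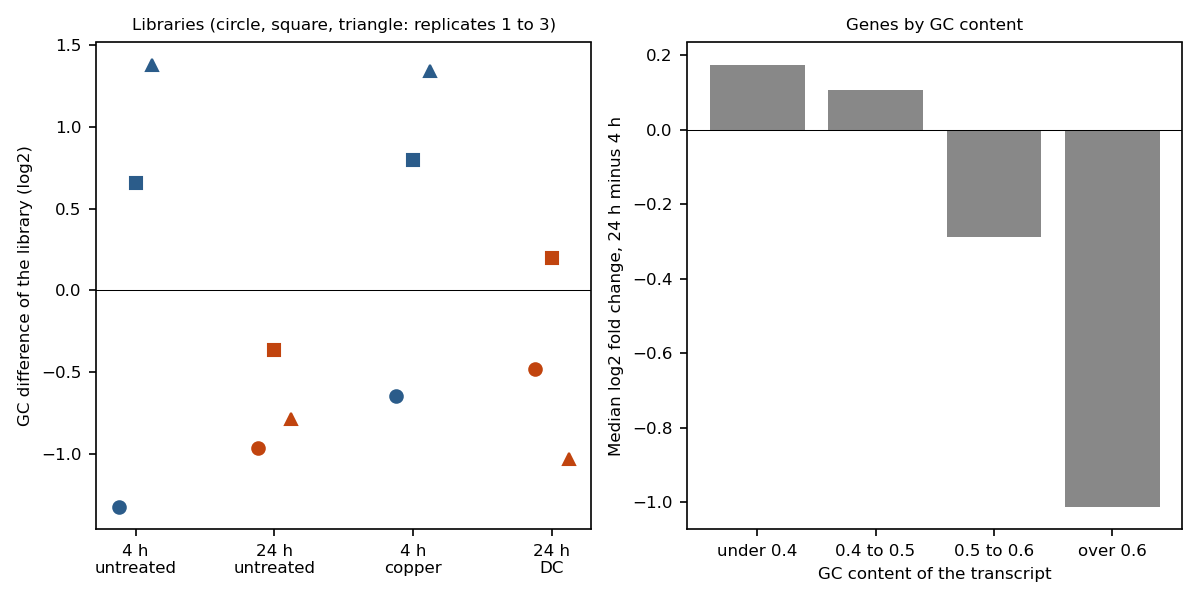
Left, GC difference of each library (log2) for the untreated groups and for 4 h copper and 24 h DC, with a circle, square and triangle for replicates 1 to 3. Right, bars of the median log2 fold change (24 h minus 4 h) of genes by GC content. The 4 h untreated libraries span -1.32 to 1.38 and the 24 h untreated libraries -0.96 to -0.36, and genes over 0.6 have the lowest median, -1.01.

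KCNN3 encodes a calcium-activated potassium channel that shapes neuronal firing, and lies on chromosome 1 from 154697455 to 154870280 (GENCODE 29 on GRCh38). It was at 1.60, 0.873 and 1.68 CPM (counts scaled to a common library total) at 24 h and at 0.123, 0.199 and 0.0639 CPM at 4 h. Every 24 h library lay above every 4 h library, though the 4 h values rest on 3, 6 and 2 counts. The log2 fold change was 3.39 (SE 0.34, edgeR adjusted p = 9.64e-06), and 3.24 with GC trends removed.

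NAB2 encodes a corepressor that binds EGR proteins and is itself induced by them, and lies on chromosome 12 from 57088894 to 57095476. It was at 7.20, 8.76 and 6.95 CPM at 24 h and at 19.2, 42.4 and 57.2 CPM at 4 h. The groups did not overlap, and the 4 h libraries spread over a wider range than the 24 h libraries. The log2 fold change was -2.38 (SE 0.33, edgeR adjusted p = 0.000199). TNFRSF12A encodes the receptor for the cytokine TWEAK, is induced by growth factors and lies on chromosome 16 from 3018445 to 3022383. It was at 1.87, 2.75 and 1.19 CPM at 24 h and at 6.32, 12.9 and 19.0 CPM at 4 h. Here too the 4 h library nearest the 24 h group was the first one. The log2 fold change was -2.72 (SE 0.42, edgeR adjusted p = 0.000454). Both transcripts are rich in GC (0.626 for NAB2 and 0.642 for TNFRSF12A), and with GC trends removed the log2 fold changes were -1.53 and -1.80. KCNN3, NAB2 and TNFRSF12A were all stable.

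Over all 24 libraries, the genes whose log2 CPM followed KCNN3 most closely were ATP2B4 (Pearson r = 0.92), SLC7A14 (0.92) and MLLT3 (0.90). Those closest to NAB2 were TNFRSF12A (0.98), GAB2 (0.98) and NR4A1 (0.96), and those closest to TNFRSF12A were NAB2 (0.98), FAM131A (0.96) and EIF3B (0.95). These 24 libraries share the treatments and the GC trend.

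**Figure D2:**
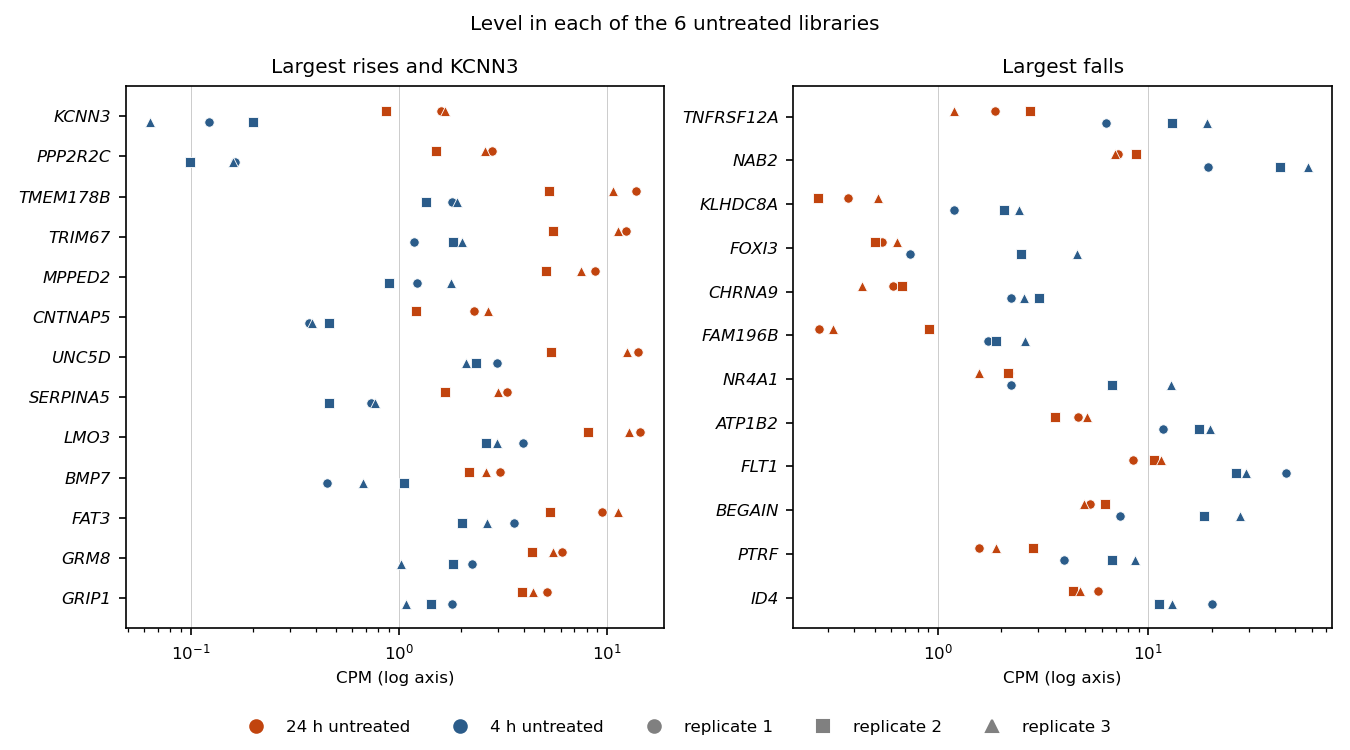
Level (CPM, log axis) in each of the 6 untreated libraries for KCNN3 and the 12 genes with the largest rises (left) and for the 12 with the largest falls (right), among called genes that averaged 1 CPM or more and did not overlap between the times. Red marks are 24 h, blue marks 4 h, and circle, square and triangle are replicates 1 to 3. KCNN3 averaged less than 1 CPM and is shown beside them, and the first 4 h library of NR4A1, at 2.22 CPM, sits beside the 24 h libraries.

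The 12 largest rises, counted over genes that passed, averaged 1 CPM or more and did not overlap between the times, included several genes of neural cells. PPP2R2C, a brain-enriched regulatory subunit of protein phosphatase 2A, was at 2.82, 1.51 and 2.61 CPM at 24 h and 0.164, 0.0994 and 0.160 CPM at 4 h, a log2 fold change of 4.01 (SE 0.61, edgeR adjusted p = 0.00041). MPPED2, a metallophosphodiesterase, was at 8.83, 5.10 and 7.53 CPM against 1.23, 0.894 and 1.79 CPM, a log2 fold change of 2.45. TRIM67, a ubiquitin ligase of developing neurons, was at 12.4, 5.54 and 11.4 CPM against 1.19, 1.82 and 2.01 CPM, a log2 fold change of 2.53. In all of these the second 24 h library was the lowest of its group and still above all 4 h libraries. TMEM178B rose by 2.55 on the log2 scale. CNTNAP5, a neuronal adhesion protein of the neurexin family, rose by 2.34, and the netrin receptor UNC5D by 2.11. SERPINA5 (2.02), the transcriptional regulator LMO3 (1.88), the signalling ligand BMP7 (1.83), the giant cadherin FAT3 (1.67), the glutamate receptor GRM8 (1.65) and the glutamate receptor scaffold GRIP1 (1.65) completed the set. CNTNAP5, SERPINA5, FAT3 and GRM8 were not stable. Each of the 4 lost its call with at least 1 single library left out.

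Among falls under the same limits of level and overlap, TNFRSF12A and NAB2 were followed by KLHDC8A (log2 fold change -2.27), FOXI3 (-2.21) and CHRNA9 (-2.18), a nicotinic acetylcholine receptor subunit. FLT1, a receptor for vascular endothelial growth factor, was at 8.46, 10.7 and 11.5 CPM at 24 h and 45.3, 26.2 and 29.3 CPM at 4 h, a log2 fold change of -1.72 (SE 0.22, edgeR adjusted p = 0.000107). Unlike NAB2, FLT1 was highest in the first 4 h library. ID4, an inhibitor of helix-loop-helix transcription factors, was at 5.74, 4.40 and 4.72 CPM against 20.2, 11.2 and 13.0 CPM, a log2 fold change of -1.58. ATP1B2, a sodium pump subunit, fell by 1.88 on the log2 scale. NR4A1 (-1.89), FAM196B (-2.05), BEGAIN (-1.68) and PTRF (-1.63), the caveolar coat protein cavin 1, completed the 12. Of the 12, NR4A1, FOXI3, FAM196B, BEGAIN and PTRF were not stable. Leaving out the third 4 h library alone ended the call of each of these 5.

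The smallest adjusted p-values belonged to falls with little spread, and the genes of this paragraph were chosen after their values were seen. PTPRE, a receptor-type tyrosine phosphatase, was at 10.1, 11.4 and 9.79 CPM at 24 h and 26.4, 27.7 and 30.4 CPM at 4 h (log2 fold change -1.43, SE 0.10, edgeR adjusted p = 8.31e-08). RBM3, a cold-inducible RNA-binding protein, was at 181, 173 and 176 CPM against 290, 290 and 310 CPM (log2 fold change -0.75, SE 0.05, edgeR adjusted p = 8.31e-08). LONRF2, a ubiquitin ligase of neurons, was at 53.7, 48.8 and 53.2 CPM against 162, 134 and 144 CPM (log2 fold change -1.50, SE 0.14). In PTPRE, RBM3 and LONRF2 alike, the first 4 h library lay with the others, above every 24 h library. CIRBP, the second well-known cold-inducible RNA-binding protein, was at 107, 113 and 115 CPM against 160, 192 and 212 CPM, a log2 fold change of -0.75 (edgeR adjusted p = 0.000148). With GC trends removed CIRBP was at -0.35 and did not pass (edgeR adjusted p = 0.184), while RBM3 was at -0.88 and passed. Among rises, the retinoic acid receptor RARB was at 29, 23.8 and 22.7 CPM against 9.03, 9.90 and 8.41 CPM, a log2 fold change of 1.47 (SE 0.15, edgeR adjusted p = 9.64e-06).

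Of 29 tested genes on the list of SRF targets and actin cytoskeleton genes, 12 were lower at 24 h and 0 higher, with a median log2 fold change of -0.82. VCL, which encodes vinculin of cell adhesions, was at 104, 116 and 102 CPM at 24 h and 179, 186 and 202 CPM at 4 h, with a log2 fold change of -0.81 (SE 0.07, edgeR adjusted p = 8.92e-07). The cytoplasmic actin gene ACTB was at 1288, 1464 and 1192 CPM against 1902, 2214 and 2706 CPM (log2 fold change -0.79, SE 0.15). ACTG1, the other cytoplasmic actin, was at 660, 756 and 613 CPM against 1164, 1154 and 1292 CPM (log2 fold change -0.83, SE 0.12). The actin transcripts are near copies of each other and of pseudogenes, so counting may have divided their reads. The tropomyosins TPM1 (-0.55) and TPM4 (-0.39), the LIM domain protein FHL2 (-1.04) and FILIP1L (-0.92) fell and were stable, as were VCL, ACTB and TNFRSF12A. The focal adhesion gene ZYX (-2.19), calponin CNN2 (-1.37), nonmuscle myosin MYH9 (-0.98) and SRF itself (-0.89) fell but were not stable. SRF was at 21.0 CPM in the first 4 h library, inside the 24 h range of 17.0 to 22.5 CPM, and at 39.1 and 49.1 CPM in the other 2. Once GC trends were removed, 15 of the 29 were lower and 1 higher, with a median of -0.42. SRF (edgeR adjusted p = 0.543) and ACTG1 (adjusted p = 0.174) no longer passed. Without the first 4 h library, 24 were lower and 1 higher.

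Members of this list are shown by the DNA before their transcription starts, because SRF is known to bind the CArG box there. In RefSeq promoters of GRCh38.p14, taken as 250 bases before to 50 after each start, 10 of the 12 lower members had an entry and 6 of these held a CArG box, which was searched by its consensus on both strands. Of the 15 tested members with an entry that were not called, 3 held one. A gene can have several promoters, and counted by promoter the box was in 11 of the 57 promoters of tested list members (19.3%). It was in 1.15% of the promoters of all tested genes, in 1.29% of all 35116 promoters, in 2.29% of 654 promoters of genes called lower and in 0.927% of 1079 promoters of genes called higher. The 2.29% rests on 15 promoters, which include promoters of the 6 lower list members with a box, so it is not separate from the list. Targets of SRF were put on the list from knowledge of that factor, so the share on the list is a description. The windows below run 25 bases to either side, 5′ to 3′ on the strand of the gene, with the CArG box in capitals. SRF holds 2 boxes, 30 and 10 bases before its start, at chr6:43171214-43171293 on the plus strand. The ACTG1 window is chr17:81512859-81512918 (minus), the FHL2 window chr2:105438580-105438639 (minus) and the FILIP1L window chr3:99876199-99876258 (minus). The CNN2 window is chr19:1026494-1026553 (plus) and the TPM4 window chr19:16067340-16067399 (plus). A match says only that these letters are present.
SRF: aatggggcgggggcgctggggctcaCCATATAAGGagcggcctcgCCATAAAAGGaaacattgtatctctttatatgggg
ACTG1: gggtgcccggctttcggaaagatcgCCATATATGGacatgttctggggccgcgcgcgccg
FHL2: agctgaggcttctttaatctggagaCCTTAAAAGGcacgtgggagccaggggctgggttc
FILIP1L: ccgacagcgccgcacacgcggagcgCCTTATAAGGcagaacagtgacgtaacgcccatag
CNN2: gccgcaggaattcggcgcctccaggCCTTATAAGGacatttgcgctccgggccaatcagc
TPM4: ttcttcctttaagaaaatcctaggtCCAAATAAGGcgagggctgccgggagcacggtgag

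Of 32 tested immediate early genes, 9 were lower at 24 h and 1 higher, with a median log2 fold change of -0.41. The lower members were NAB2, KLF6 (-0.60), ID1 (-0.59), FOSL2 (-1.55), NR4A1 (-1.89), IER5 (-0.39), MAFF (-0.92), JUND (-0.42) and SRF, of which NAB2, KLF6 and FOSL2 were stable. BTG2, an antiproliferative gene that p53 also induces, was higher, at 24.4, 15.6 and 17.9 CPM against 10.8, 11.6 and 9.65 CPM (log2 fold change 0.85, SE 0.16, edgeR adjusted p = 0.00194). NR4A1, an orphan nuclear receptor, was at 2.17, 2.15 and 1.56 CPM at 24 h and at 2.22, 6.76 and 12.8 CPM at 4 h, so its first 4 h library lay next to the 24 h libraries. With GC trends removed 7 members were lower and 1 higher (median -0.10), and JUND changed sign to 0.21 without passing. Without the first 4 h library 16 were lower and 1 higher. EGR1 and FOS, transcription factors that define the class, did not pass. EGR1 was at 43.1, 2.38 and 2.61 CPM at 24 h and at 14.2, 15.2 and 16.5 CPM at 4 h, a log2 fold change of 0.06 (edgeR adjusted p = 0.977). FOS was at 3.26, 0.403 and 0.376 CPM against 0.780, 1.16 and 0.927 CPM, a log2 fold change of 0.48 (adjusted p = 0.722). For EGR1 and for FOS the first 24 h library was above, and the other 24 h libraries below, every 4 h library. Without that library the log2 fold changes were -2.64 for EGR1 and -1.32 for FOS, and neither passed (edgeR adjusted p = 0.254 and 0.386). With limma-voom, all libraries kept, they were -1.29 and -0.29 and did not pass either. Replicate 1 was also the highest library of each of the 5 treated groups of 24 h. EGR1 was at 19.5 to 32.6 CPM in those 5 libraries and at 2.18 to 6.02 CPM in the other 10, and FOS at 1.37 to 1.86 CPM and 0.202 to 0.635 CPM.

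The window of the NAB2 promoter with its match to the motif of EGR proteins, GCGGGGGCG, is shown because NAB2 had the largest fall among the called members. The match starts 62 bases before the RefSeq transcription start, in chr12:57089027-57089085 on the plus strand (GRCh38.p14), and is in capitals. By the GENCODE coordinates given for NAB2 above, which start earlier, this window lies inside the gene. This motif, searched on both strands, was in 5.07% of all promoters, 7.80% of those of tested genes, 12.1% of those called lower and 5.84% of those called higher. It consists of G and C alone, and lower calls were more frequent among GC-rich genes, whose part in these shares was not tested.
NAB2: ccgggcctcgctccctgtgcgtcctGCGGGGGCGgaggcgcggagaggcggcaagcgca

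Genes that dampen MAPK signalling or report its output gave 6 lower and 1 higher of 26 tested, with a median log2 fold change of -0.43. SH2B3, an adaptor that restrains receptor kinases, was at 21.4, 21.3 and 20.6 CPM at 24 h and 46.3, 40.4 and 42.5 CPM at 4 h, a log2 fold change of -1.03 (SE 0.10, edgeR adjusted p = 5.41e-06). CCND1, the G1 cyclin D1, was at 806, 835 and 789 CPM against 1225, 1055 and 1104 CPM, a log2 fold change of -0.48 (SE 0.06). Neither gene overlapped between times, and both were stable, as was the MAPK phosphatase DUSP10 (-0.75). The phosphatases DUSP5 (-0.82), DUSP8 (-1.29) and DUSP14 (-0.58) fell but were not stable. ETV1, a transcription factor downstream of the pathway, rose by 0.52 and was not stable. With GC trends removed 9 were lower and 1 higher, with a median of -0.26, and without the first 4 h library 18 were lower and 2 higher. Of 20 tested NF-kB target genes, 5 were lower and 0 higher, with a median of -0.41. They were TNFRSF12A, the heparan sulfate proteoglycan SDC4 (-0.44), the NF-kB subunit RELB (-1.45), the plasminogen activator PLAU (-1.12) and the adhesion receptor ICAM1 (-1.55), of which the first 2 were stable. ICAM1 was below 1 CPM in all 6 libraries. With GC trends removed 4 of the 20 NF-kB target genes were lower and 0 higher, with a median of -0.07. Without the first 4 h library 11 of them were lower and 1 higher. TNFRSF12A is on this list and on the SRF list.

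Other signalling lists held fewer calls. Of 20 TGF beta and BMP response genes, 3 were lower, among them the direct targets ID1 and ID4, and BMP7 was higher. Of 20 targets of YAP and TEAD, the co-regulators of cell density and stretch, AMOTL2 (-0.76), AMOTL1 (-0.19) and WTIP were lower and AJUBA (0.36) was higher. WTIP rested on 0 to 5 counts per 24 h library and 3 to 27 per 4 h library. Of 21 Wnt genes, 4 were lower, among them the nuclear effectors TCF7L2 (-0.52) and LEF1 (-0.49) and the receptor ligase ZNRF3 (-0.30), and the R-spondin receptor LGR4 (0.63) was higher. In the Notch list of 14, the ligand JAG1 was the single call, at 10.2, 9.60 and 9.03 CPM against 4.56, 5.80 and 6.36 CPM (log2 fold change 0.78). BMP7, ID4, TCF7L2 and JAG1 were the stable calls of these lists.

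Of 42 tested genes of neurites, axon guidance and adhesion, 12 were higher at 24 h and 1 lower, with a median log2 fold change of 0.29. SEMA6A, a transmembrane semaphorin, was at 27.1, 31.6 and 30.3 CPM at 24 h and at 18.6, 17.4 and 17.7 CPM at 4 h, a log2 fold change of 0.73 (SE 0.09, edgeR adjusted p = 0.000107). The semaphorin receptor NRP2 was at 9.85, 7.79 and 8.54 CPM against 3.70, 5.20 and 4.99 CPM, a log2 fold change of 0.91. Neither gene overlapped between times. The semaphorin receptor PLXNC1 (0.86), the Slit receptors ROBO1 (0.33) and ROBO2 (0.61), UNC5D and the dendritic microtubule protein MAP2 (0.47) also rose, and all of these but ROBO2 were stable. PLXNA2, another semaphorin receptor, fell by 0.91. The median GC content of the list was 0.446, and all genes with a GC content of 0.4 to 0.5 had a median log2 fold change of 0.11. The part of the GC trend in the list was not tested. Without GC trends 13 were higher and 3 lower with a median of 0.24, and without the first 4 h library 19 were higher and 4 lower.

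Of 32 tested voltage-gated and potassium channel genes, 7 were higher and 1 lower, with a median log2 fold change of 0.08. Besides KCNN3, the neuronal sodium channel SCN2A was at 38.8, 34.1 and 37.2 CPM at 24 h and 26.2, 18.7 and 17.4 CPM at 4 h, a log2 fold change of 0.82 (SE 0.15, edgeR adjusted p = 0.0015). The sodium channel of sensory and sympathetic neurons, SCN9A, was at 253, 211 and 268 CPM against 182, 129 and 117 CPM (log2 fold change 0.78), and SCN3A rose by 0.76. In all of these sodium channel genes the first 4 h library was the highest of its group. The potassium channels KCNJ3 (1.42) and KCNA3 (3.48) also rose, both at under 3 CPM. KCNMB4, an accessory subunit of calcium-activated potassium channels, fell by 0.40. KCNN3, SCN2A and KCNJ3 were stable. In the fit without GC trends 9 were higher and 1 lower, and without the first 4 h library 9 were higher and 10 lower. Over all genes, 12.3% were higher and 13.7% lower in the former fit, and 21.5% and 28.3% in the latter.

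Adrenergic identity genes gave 2 higher and 1 lower of 31 tested, with a median log2 fold change of 0.06. The transcription factors HAND1 (0.79) and DACH1 (0.45) rose and KLF13 fell by 0.58, and HAND1 alone was stable. DBH, the enzyme that makes noradrenaline, was at 80.2, 147 and 79.8 CPM at 24 h and at 81.3, 341 and 555 CPM at 4 h and did not pass (log2 fold change -1.67, edgeR adjusted p = 0.0939). Its first 4 h library lay within the 24 h range, and without it DBH passed (-2.18, edgeR adjusted p = 0.0102). Of 21 mesenchymal identity genes, 4 were lower and 0 higher, and all 4 were stable. They were the intermediate filament VIM, at 1142, 1129 and 1118 CPM against 1485, 1422 and 1488 CPM (log2 fold change -0.38, edgeR adjusted p = 0.000199), the cadherin CDH11 (-0.75), FOSL2, and SNAI2 (-0.55), a repressor of epithelial genes. After removal of GC trends 7 mesenchymal genes were lower and 2 higher. Without the first 4 h library 6 of the 21 were lower and 1 higher, beside 28.3% lower and 21.5% higher over all genes. In bulk samples fewer cells of a type and less RNA per cell cannot be told apart. Among neuropeptides, NPY (0.64) and VIP (1.10) were higher, neither of them stable, and 0 of 13 were lower. Of 30 growth factor receptors and ligands, the receptors KIT (0.83) and NTRK2 (1.27) and the NTRK2 ligand BDNF (0.52) were higher. KIT was stable, and NTRK2 and BDNF were not. Of the 2 lower, the binding protein IGFBP3 fell by 0.86 and was stable.

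Of 50 tested genes of DNA replication and the G1/S transition, 9 were lower at 24 h and 0 higher, with a median log2 fold change of -0.23. E2F8, an E2F repressor that peaks in S phase, was at 27.6, 31.8 and 27.7 CPM at 24 h and 41.2, 38.1 and 41.2 CPM at 4 h, a log2 fold change of -0.47 (SE 0.10, edgeR adjusted p = 0.00542). The uracil glycosylase UNG, at 80.4, 83.8 and 80.8 CPM against 100.4, 95.7 and 99.7 CPM, fell by 0.27. E2F8 and UNG were stable. UHRF1 (-0.58), the replicative helicase components CDC45 (-0.56) and MCM4 (-0.32) and the polymerase subunit POLE (-0.74) fell too. In the fit without GC trends 26 of the 50 were lower and 0 higher, with a median of -0.27, and without the first 4 h library 23 were lower and 1 higher. The 42 mitosis genes gave 2 higher, CENPF (0.45) and KIF20A (0.25), and 2 lower, HJURP (-0.28) and KIF2C (-0.27), with a median of 0.15. None of these mitosis calls was stable. Among 26 cyclins, CDK inhibitors and quiescence genes, BTG2, the arrest gene GAS1 (0.58), the pocket protein RBL2 (0.46) and the CDK inhibitor CDKN1C (0.49) were higher, and CCND1 and its partner CDK4 (-0.38) lower. BTG2 and CCND1 were the stable calls among them. Of 42 ribosomal protein genes 3 were lower, RPS12 (-0.25), RPL38 (-0.27) and RPL10A (-0.26), and 0 higher, with a median of -0.37, though they share sequence with pseudogenes. After removal of GC trends RPL10A changed sign to 0.06 without passing, and 16 members of the list were lower. Of 36 ribosome biogenesis genes 4 were lower and 0 higher, among them nucleolin, NCL, at 1096, 1051 and 1093 CPM against 1413, 1266 and 1232 CPM (log2 fold change -0.27). NCL was stable, and 0 of the ribosomal protein calls were.

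Lipid synthesis genes were higher without exception among those called. Of 28 tested cholesterol synthesis and uptake genes 5 were higher and 0 lower (median log2 fold change 0.20), and of 20 fatty acid synthesis genes 6 were higher and 0 lower (median 0.13). INSIG1, a sterol sensor of the ER membrane and itself a target of the SREBP factors, was at 56.9, 39.2 and 61.6 CPM at 24 h and at 30.5, 21.6 and 20.3 CPM at 4 h, a log2 fold change of 1.12 (SE 0.21, edgeR adjusted p = 0.00234). The sterol enzymes MSMO1 (0.72) and HSD17B7 (0.65) rose with it, as did the lysosomal cholesterol exporter NPC1 (0.26). SCD, the desaturase that makes oleate, was at 801, 734 and 809 CPM against 630, 596 and 559 CPM, a log2 fold change of 0.39 (SE 0.07, edgeR adjusted p = 0.00148). ACACA (0.48), which commits acetyl-CoA to fatty acids, the elongase ELOVL6 (0.70), SCD5 (0.29), GPAM (0.50) and FADS1 (0.18) were the other fatty acid calls. INSIG1, HSD17B7, MSMO1, ACACA, SCD and ELOVL6 were stable. After removal of GC trends 9 cholesterol and 8 fatty acid genes were higher and 0 lower. Without the first 4 h library 10 cholesterol genes were higher and 9 lower, and 10 fatty acid genes were higher and 4 lower. Over all genes in that fit, 21.5% were higher and 28.3% lower.

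Of 31 heat shock chaperone genes 7 were higher and 0 lower, with a median log2 fold change of 0.19. HSPA8, the constitutive HSP70, was at 3410, 3454 and 3010 CPM at 24 h and 2780, 2084 and 1965 CPM at 4 h, a log2 fold change of 0.53 (SE 0.16, edgeR adjusted p = 0.0439). The HSP90 cochaperone CHORDC1 (0.83), DNAJB4 (0.80), HSPA4L (0.60), HSPA12A (0.57) and HSPH1 (0.56) rose as well, and 0 of the 7 were stable. HSPA1A, the stress-inducible HSP70 with a near-identical neighbour, was at 9.68, 11 and 8.92 CPM against 5.50, 6.09 and 9.43 CPM and did not pass (edgeR adjusted p = 0.132). After removal of GC trends 11 of the list were higher and 1 lower. Of 33 interferon response genes 2 were higher, STAT2, at 59.3, 59.2 and 62.4 CPM against 38.0, 42.3 and 42.0 CPM (log2 fold change 0.56), and IFIT1, at 6.25, 6.58 and 6.37 CPM against 4.31, 3.15 and 2.97 CPM (log2 fold change 0.89). Both were stable, and the median of the list was -0.40.

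Some lists held no call in edgeR. Of 24 copper transport and chaperone genes 0 passed, with 12 at an unadjusted p under 0.05, and DESeq2 called 3 and limma-voom 1. Of 17 iron genes 0 passed, with 3 at an unadjusted p under 0.05 and 0 calls by either other tool. Of 21 circadian clock genes 0 passed, with 7 at an unadjusted p under 0.05, and DESeq2 called 1 and limma-voom 0. Removing GC trends gave 4 copper genes higher and 1 lower, 0 iron genes higher and 1 lower, and 0 clock genes higher and 3 lower. Leaving out the first 4 h library gave 5 copper genes higher and 9 lower, 4 iron genes higher and 6 lower, and 2 clock genes higher and 5 lower. Over all genes the shares were 21.5% higher and 28.3% lower without that library, and 12.3% and 13.7% with GC trends removed. ATP7A, the copper exporter, was at 294, 253 and 293 CPM against 282, 199 and 179 CPM (log2 fold change 0.35, edgeR adjusted p = 0.15). The core clock activator CLOCK was at 107, 96.5 and 112 CPM against 118, 78.5 and 72.2 CPM (log2 fold change 0.23, adjusted p = 0.293), and the groups overlapped in both genes. Both passed without the first 4 h library, at 0.52 for ATP7A (edgeR adjusted p = 0.0111) and 0.43 for CLOCK (edgeR adjusted p = 0.0115). The p-values over all libraries do not show that the levels were equal.

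**Figure D3:**
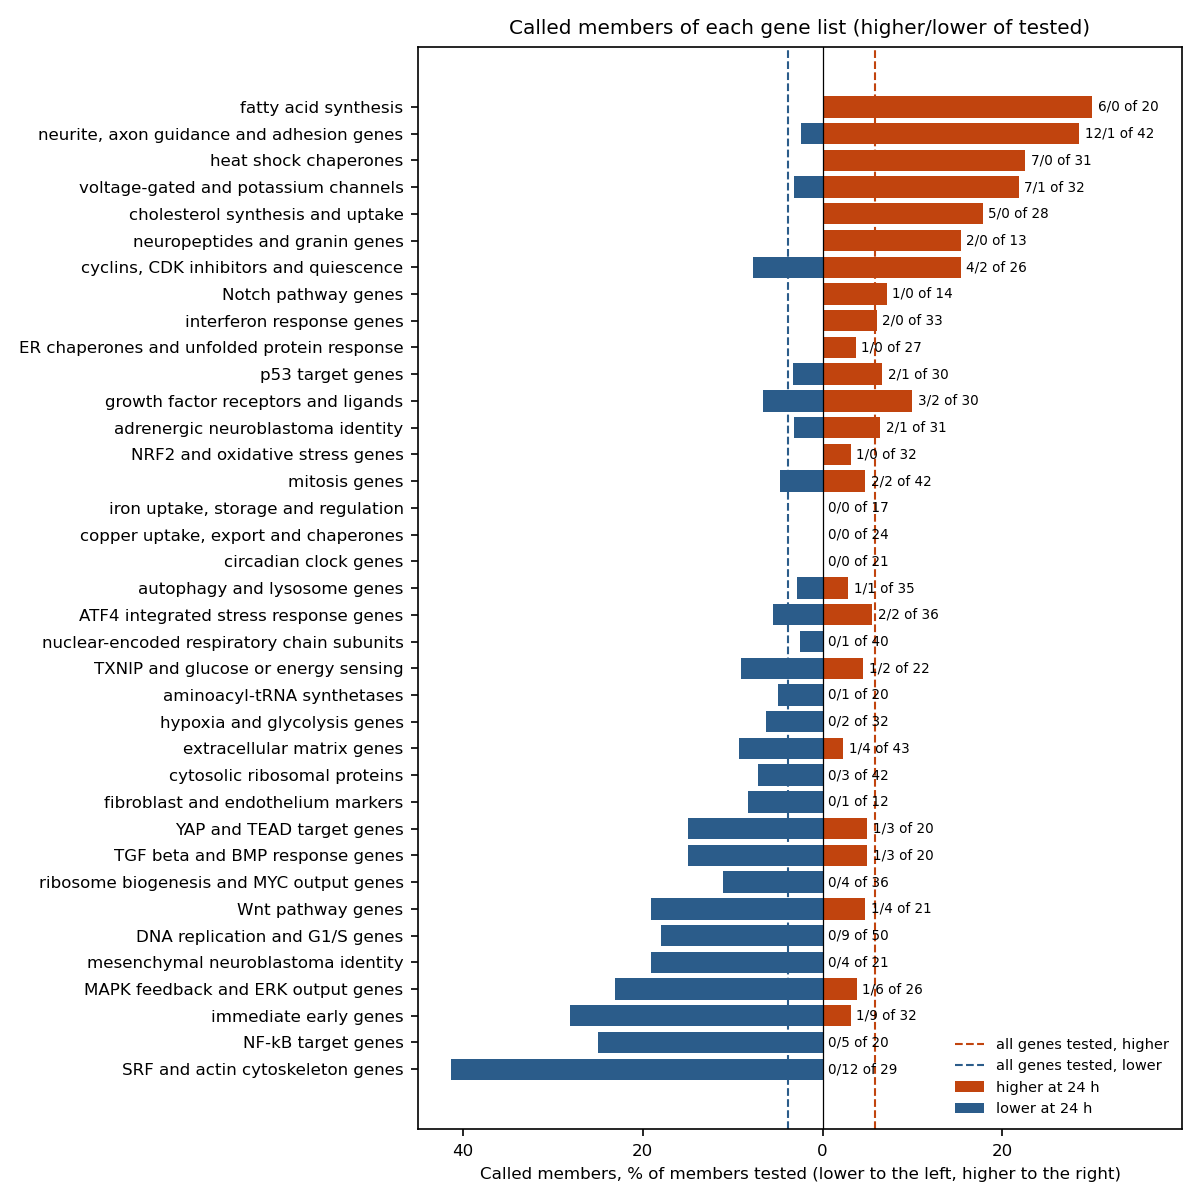
Called members of each gene list with at least 10 tested members, in % of the members tested, higher at 24 h to the right (red) and lower to the left (blue), with counts printed as higher/lower of tested. Dashed lines mark the shares over all genes tested, 5.9% higher and 3.79% lower, and the list of SRF targets and actin cytoskeleton genes reaches furthest to the left with 12 of 29.

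The label of the cells was checked against their markers. Of 32 adrenergic neuroblastoma genes 31 were at 1 CPM or more on average, with summed levels of 5671 to 5905 CPM at 24 h and 5530 to 5855 CPM at 4 h. The endothelial genes PECAM1 and CDH5, the leukocyte genes CD3E, CD3D, MS4A1, ITGAM and HLA-DRA, the keratins KRT5 and KRT14 and the neural crest gene FOXD3 were at 0 in all 6 libraries. Other members of these lists were present. At 1 CPM or more on average were 10 of 16 fibroblast and endothelium markers and 4 of 10 Schwann cell markers. Of 12 leukocyte markers 1 reached that level, and of 10 epithelium markers 1 did. Leukocyte markers summed to 0.577 to 1.95 CPM at 24 h and 1.44 to 2.88 CPM at 4 h, and epithelium markers to 2.17 to 3.45 and 2.83 to 4.38 CPM. Schwann cell markers summed to 65.7 to 73.3 CPM at 24 h and 50.1 to 58.1 CPM at 4 h, and PMP22 (log2 fold change 0.46), which is made by many cell types, was the single call of that list. Fibroblast and endothelium markers summed to 745 to 890 CPM at 24 h and 802 to 860 CPM at 4 h, with 1 called, the collagen COL1A2, which fell by 0.78.

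A pair of groups that uses none of these 6 libraries also differs in time. It differs in experiment in the same way as the untreated groups, so time and experiment cannot be told apart here either. Cells given DC for 24 h were set against cells given copper for 4 h, a contrast that also carries the effects of DC and of copper. It gave 3285 calls of 14654 genes (22.4%). Of the 1420 untreated calls, 1025 (72.2% of them, and 31.2% of the 3285) were called in the same direction and 8 in the opposite one. Of the 410 stable calls, 365 (89.0%) were called in the same direction. The log2 fold change there was 2.87 for KCNN3, -3.13 for NAB2, -3.25 for TNFRSF12A and -0.79 for RBM3. Among the opposite calls was STC2, a secreted glycoprotein of stress responses, with 0.84 in untreated cells and -3.51 here. The GC difference of these libraries was -0.48, 0.20 and -1.03 with DC and -0.65, 0.80 and 1.34 with copper, so the libraries of the 2 times differ in GC trend here as in the untreated groups.

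**Figure D4:**
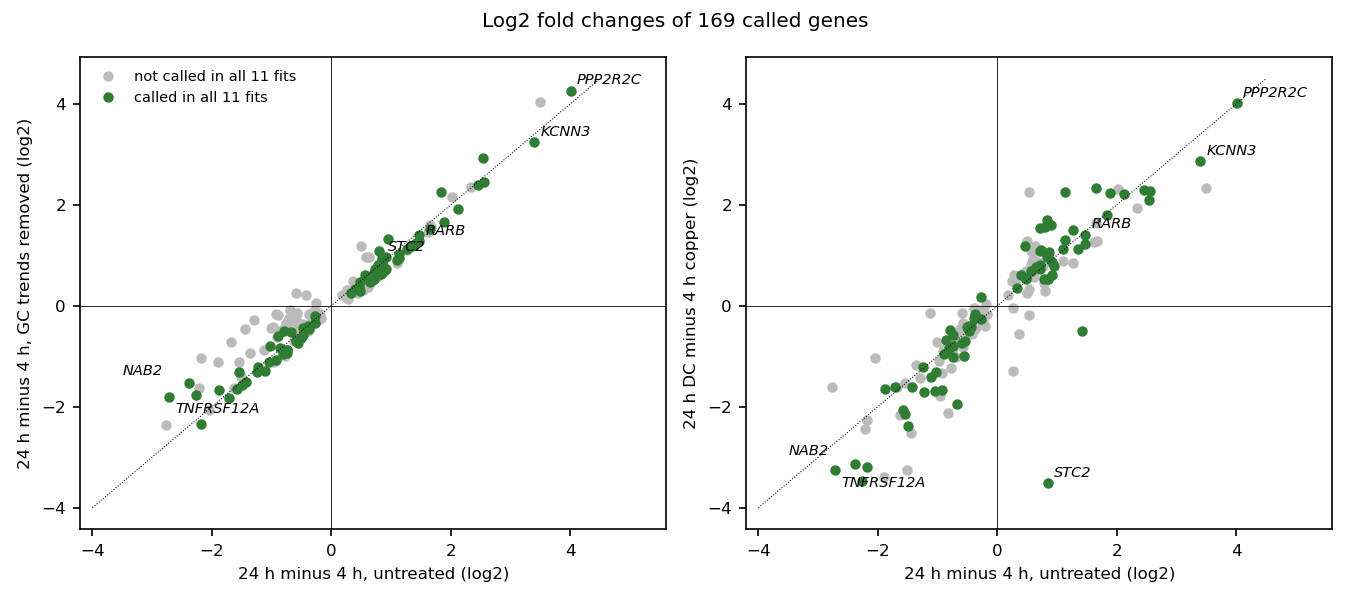
Log2 fold changes of 169 called genes in untreated cells (x axis, 24 h minus 4 h) against the same contrast with GC trends removed (left) and against 24 h DC minus 4 h copper (right). Green points passed in all 11 fits, grey points did not, and the dotted line marks equal values. On the left 166 of 169 genes keep their sign and on the right 161 do, with STC2 far below the line.

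For the leading genes, the means of all 8 groups split by harvest time, which is also a split by experiment. KCNN3 averaged 0.129 CPM in untreated cells and 0.195 CPM with copper at 4 h, and between 0.978 and 1.83 CPM in the 6 groups of 24 h. The lowest 24 h library of the series stood at 0.873 CPM and the highest 4 h library at 0.277 CPM. NAB2 averaged 39.6 CPM in untreated cells and 82.5 CPM with copper at 4 h. At 24 h it averaged 7.64 CPM in untreated cells, 9.41 with DC, 9.49 with TEPA, 12.1 with DC and IFN, 14.3 with IFN and 16.4 with TEPA and IFN. The TEPA and IFN libraries, at 14.8 to 18.2 CPM, came nearest to the first 4 h untreated library at 19.2 CPM. TNFRSF12A averaged 12.7 CPM in untreated cells and 24.2 CPM with copper at 4 h, and 1.94 to 5.95 CPM in the groups of 24 h. Its first 4 h library, at 6.32 CPM, lay below the highest IFN library (6.44 CPM) and the highest TEPA and IFN library (6.42 CPM). RBM3 averaged 297 and 291 CPM in the 4 h groups and 122 to 177 CPM in the groups of 24 h, with no overlap. PPP2R2C averaged 0.141 and 0.170 CPM at 4 h and 1.43 to 2.83 CPM at 24 h.

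**Figure D5:**
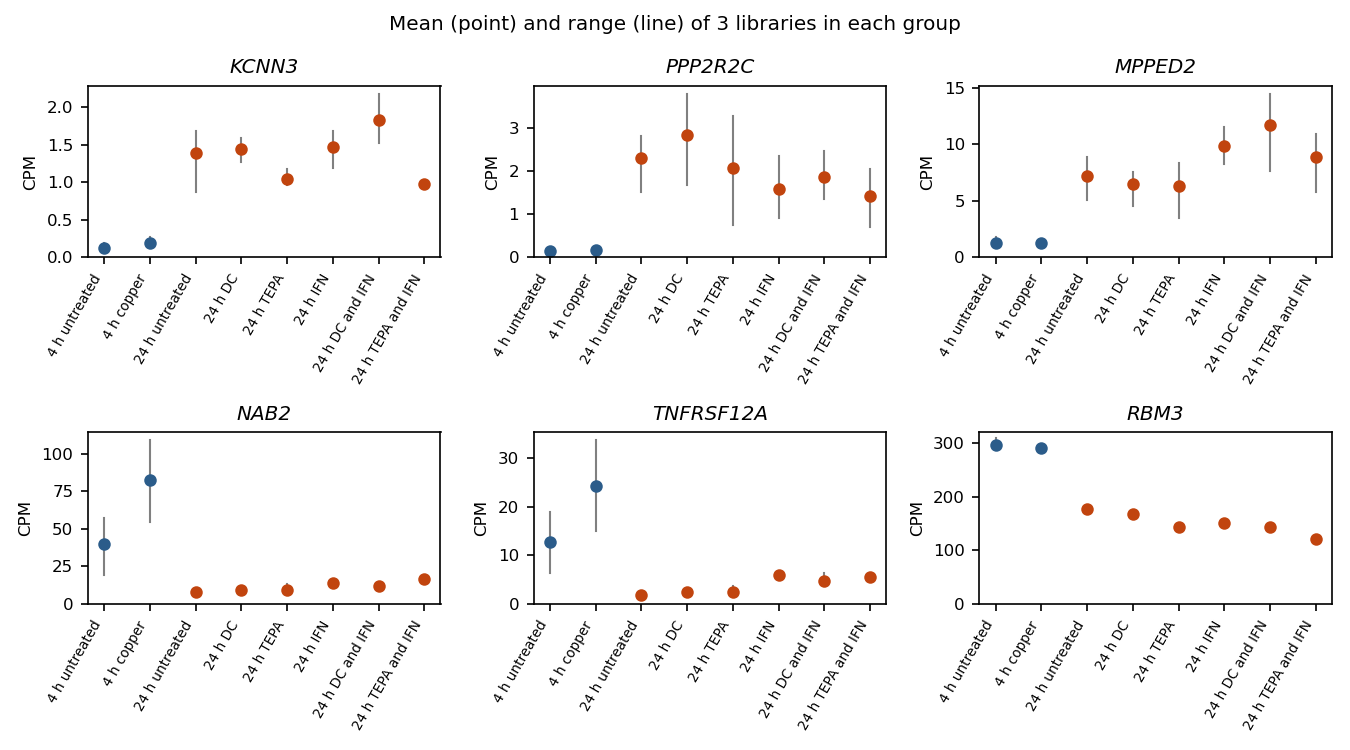
Mean (point) and range (line) of the 3 libraries in each of the 8 groups (CPM, axes from 0) for 6 genes, with 4 h groups in blue and 24 h groups in red. KCNN3, PPP2R2C and MPPED2 are higher in every 24 h group than in both 4 h groups by their means, and NAB2, TNFRSF12A and RBM3 are lower.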

How the data were processed

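Per the labels' protocols, RNA was isolated on columns and sequenced from stranded mRNA libraries. The authors deposited whole-number counts per gene symbol, without normalization, for 26485 genes. STAR 2.5a, RSEM 1.2.31 and hg38 are named in the submitters' processing notes. The annotation release, the strand setting and any filter are not given in the sources used here, so reads of overlapping and antisense genes cannot be told apart. The 6 libraries held 26850107 to 34922165 counts, within 24569980 to 35372442 over the series, and 16168 to 17030 genes had counts.

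In edgeR 4.0.16 (R 4.3.3), filterByExpr (minimum count 10) left 14654 genes, libraries were scaled with TMM factors, and a quasi-likelihood model with 1 mean per group was fitted to all 24 libraries (16 residual degrees of freedom). CPM use the scaled totals. GC contents came from GENCODE 29 (93.5% of tested genes), and GC trends were removed as a spline with 4 degrees of freedom per library. The scripts were tested on simulated data. DESeq2 1.42.0 and limma 3.58.1 gave alternatives.

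Genes named are the 12 largest rises and falls, up to 4 called members of each of 44 lists, and KCNN3, NAB2 and TNFRSF12A with the 3 genes most like each. Further list members, and genes said to be so, were chosen after their values were seen. The comparison, its leading genes and the lists were chosen with earlier results of these data known. Some genes that were picked are not reported here.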

Additional observations from a re-analysis of the deposited data

How the results depend on the processing

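The 1420 calls became 480 at an adjusted p under 0.01, 2510 with DESeq2, 3818 with GC trends removed and 555 to 7375 with each library left out in turn. The highest count came without the first 4 h untreated library. Leaving out 24 h replicate 1 gave 632 and replicate 3 gave 613, and leaving out 4 h replicate 2 gave 643 and replicate 3 gave 555. With GC trends removed the leave-one-out counts were 2448 to 5713. Fitted to the 6 libraries alone, edgeR called 1 gene, and 1504 with GC trends removed (added after seeing the data). A replicate block gave 0 calls in the 6 libraries (1861 genes at an unadjusted p under 0.05), 514 there with GC trends removed, and 2254 over all libraries. Same-numbered libraries did not deviate together in every pair (correlations 0.41, 0.37 and -0.18). These correlations rest on few libraries that share the GC trend, so they cannot show whether the numbers pair libraries. For EGR1 and FOS, replicate 1 was the highest library of every 24 h group. The replicate block over all libraries put EGR1 at -1.33 and FOS at -0.18, against 0.06 and 0.48, and neither passed. Upper quartile scaling (1874), limma-voom (1412), no filter (1029) and a minimum of 1 CPM in 3 libraries (1720) stayed within 1.5 times.

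The 3285 calls of 24 h DC against 4 h copper became 1810 at 0.01, 1383 in those 6 libraries alone, 114 there with a replicate block, 5748 with GC trends removed and 2167 to 5286 with each library left out.

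With GC trends removed in all libraries, in the 6 with a block and in the 6 without, log2 fold changes reversed for H2AFX (0.25, 0.42 and 0.25), JUND (0.21, 0.54 and 0.19) and RPL10A (0.0573, 0.109 and 0.0602). The cause was not tested. Among single genes, 2226 values kept their side of the threshold, 857 lost the call and 12 gained it. Values that kept their side did not all keep their direction, because genes without a call could change sign. With limma-voom, EGR1 went from 0.06 to -1.29 and FOS from 0.48 to -0.29, without a call in either fit. Counts of a few per library limit KCNN3, PPP2R2C and KCNA3 at 4 h.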

Other observations

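Lists not described above held few calls in either direction. Of 36 ATF4 target genes, the factor ATF5 (log2 fold change -1.01) and the arginine transporter SLC7A1 (-0.68) were lower at 24 h, and the serine synthesis enzyme PSPH (0.26) and STC2 (0.84) were higher. Of 30 p53 targets, TP53INP1 (0.63) and BTG2 were higher and the kinase PLK2 (-0.63) lower. Of 22 genes of glucose and energy sensing, SESN3 (0.68), a sestrin that restrains mTORC1, was higher, and the glycolysis regulator PFKFB3 (-0.90) and the arrestin-domain gene ARRDC2 (-0.69) lower. PFKFB3 was also 1 of the 2 lower genes among 32 of hypoxia and glycolysis, with the phosphofructokinase PFKP (-0.70). Among 43 extracellular matrix genes 1 was higher and 4 lower, including COL1A2 and the plasminogen activator PLAT (-0.96). Single calls were catalase, CAT (0.27), among 32 NRF2 genes, DNAJC3 (0.44) among 27 ER chaperone genes, the zinc transporter SLC39A10 (0.63) among 8 metallothioneins and MTF1 targets, NDUFA10 (-0.18) among 40 respiratory chain genes and HARS (-0.35) among 20 tRNA synthetases. The cathepsin CTSB (-0.58) fell and NPC1 rose among 35 lysosome and autophagy genes. Among 9 histone genes, HIST1H2BD (0.71) rose and H2AFX (-0.59) fell. Of 8 nuclear RNAs listed as signs of RNA quality, KCNQ1OT1 (1.62) was higher, at 4.31, 3.63 and 9.61 CPM against 2.26, 1.66 and 1.82 CPM. Of the calls named in this paragraph, SLC7A1, STC2, BTG2, PFKFB3 and HIST1H2BD were stable and the others were not.

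Some stable calls outside the lists were chosen after their values were seen. The homeodomain factor HOXD8 was at 20.8 to 24.5 CPM at 24 h and at 10.4 to 13.3 CPM at 4 h. MITF, the melanocyte lineage regulator, was at 14.5 to 16.7 CPM against 7.10 to 9.24 CPM. The calcium pump ATP2B4, the gene nearest to KCNN3 across libraries, was at 108, 108 and 117 CPM against 75.0, 64.5 and 63.3 CPM. NEDD9, a scaffold of focal adhesions, was at 9.47 to 13.3 CPM at 24 h and 23.6 to 29 CPM at 4 h. None of these ranges overlapped.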
